A study of Mus musculus with 2 samples.

Results

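Sfrp1, Sfrp2, Sfrp4, Sfrp5, Frzb, Wif1, Dkk1, Dkk2 and Dkk3 encode secreted antagonists of Wnt signalling. These 9 genes were taken by name from the 22652 genes with at least 1 unique molecular identifier (UMI) in cells of E18.5 mouse femur. A UMI is a tag that counts 1 captured mRNA molecule. All 9 genes were detected in both libraries. By the paper's methods, embryonic femurs were dissected, crushed and digested with collagenase, so the cells are not of marrow alone. Lineage-committed blood cells were removed magnetically, so that progenitors and the cells around them remained. The paper used C57BL/6 mice for wild-type marrow and kept its other lines on a mainly C57BL/6 background. One library is labelled WT. The other is labelled Bmx-CreER Wls: in this line, tamoxifen-induced Cre recombinase under Bmx regulatory sequences, active in arterial endothelial cells (ECs), deletes Wls, the carrier that takes Wnt ligands to the cell surface. The number of embryos in each library, and whether the WT embryos carried Cre or received tamoxifen, are not given in the sources used here. With 1 library per genotype there is no replicate, no test between genotypes was possible, and genotype cannot be told apart from library.

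Wnt ligands bind Frizzled receptors and the co-receptors Lrp5 and Lrp6, and thereby stabilise beta-catenin or act through other routes. The secreted Frizzled-related proteins (Sfrp1, Sfrp2, Sfrp4, Sfrp5 and Frzb, which is also called Sfrp3) carry a domain like that of the Frizzled receptors and bind Wnt ligands outside the cell, as does Wif1 through its WIF domain. The Dickkopf proteins Dkk1 and Dkk2 instead bind Lrp5 and Lrp6, while Dkk3 is a divergent family member whose part in Wnt signalling is less settled. In the skeleton, Wnt signalling acts on cartilage maturation, joint formation and bone formation, and several of these antagonists are known markers of particular cartilage zones or bone cells.

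The WT library held 5998 cell barcodes with 22708005 UMIs and the Bmx-CreER Wls library 6825 barcodes with 24704991 UMIs. After filtering, 5736 and 6620 cells remained, with a median of 3128 and 3067 UMIs, and 48 of the barcodes kept occurred in both libraries. Cells were clustered together without using the 9 genes, and classes were named by leading genes or by marker lists. Of 33 classes, 25 had at least 20 cells in each library and entered the orders below. Cartilage cells made up 44.1% of WT and 61.9% of Bmx-CreER Wls cells, stromal cells 24.0% and 15.9%, Cxcl12-high and osteoblast-like cells together 5.13% and 2.28%, ECs 9.78% and 6.65%, and blood cells 11.9% and 6.74%. Marker lists were checked against the names. All 8 osteoblast, all 7 arterial and all 6 tendon markers were higher in the classes named for them than in other cells, and 5 of 6 superficial chondrocyte markers were higher in Prg4-high chondrocytes. Of the 8 general chondrocyte markers, 4 were higher in Prg4-high chondrocytes and 0 in Mmp13-high hypertrophic-like cells, where all 6 hypertrophic markers were higher. Both classes were counted as cartilage. In a class led by Bpifb1, 1 of 8 chondrocyte markers was higher, and it is therefore called only Bpifb1-high cells and was not counted as cartilage. The study's own list of WT cells, however, gives 48 Bpifb1-high cells as chondrocytes. Of the Mmp13-high hypertrophic-like cells it gives 6 as chondrocytes and 12 as OLCs-1, an osteolineage type. Shares of cartilage below depend on this choice. In Cxcl12-high cells all 8 markers of the Cxcl12-rich osteolineage list were higher than in other cells, but their 10 leading genes held 1 of them and 2 of the hypertrophic chondrocyte list (Mmp13 and Spp1), so this class too is named only by its gene.

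The targeted gene was examined first. Levels are given as counts per 1000000 UMIs of each class (CPM), with an exact Poisson 95% interval that covers counting error only. In arterial-like ECs, Wls was counted 9 times in WT, or 38.1 CPM (17.4 to 72.3), and 3 times in Bmx-CreER Wls, or 11.3 CPM (2.33 to 33.1). The value was lower in the library labelled for the deletion, but the intervals overlapped. Wls was also lower there in Ucma-high chondrocytes, at 96.7 CPM against 145 CPM, a class in which the Cre driver is not described to act. Where the counted reads lie relative to the deleted part is not given in the sources used here, so the labels are neither borne out nor contradicted by this gene.

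On GRCm38 with GENCODE vM21, the 9 genes lie apart from each other. Sfrp1 lies on the plus strand at chr8:23411502-23449632, Sfrp2 on the plus strand at chr3:83766321-83774316 and Sfrp4 on the plus strand at chr13:19623104-19632994. Sfrp5 lies on the minus strand at chr19:42197971-42202252 and Frzb on the minus strand at chr2:80411970-80447625. Wif1 spans 10 exons on the plus strand at chr10:121033960-121100650. Dkk1 lies on the minus strand at chr19:30545863-30549665, Dkk2 on the plus strand at chr3:132085292-132180304 and Dkk3 on the minus strand at chr7:112116017-112159057. Sfrp2 overlaps an antisense gene, Gm26771, and whether counting used strand is not stated, so that reads of this pair may be mixed.

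The RefSeq table of promoters (GRCm38.p6) held 6 of the 9 genes. The 100 bases before the start of transcription are shown for 3 genes that were highest in different compartments, Sfrp2 (stroma), Sfrp5 (cartilage) and Dkk2 (arterial-like ECs), for which RefSeq and GENCODE give the same start. Each is written 5′ to 3′ on the gene's strand, and capitals mark the letters TATAAA. The windows are chr3:83766221-83766320 (plus), chr19:42202253-42202352 (minus) and chr3:132085192-132085291 (plus).
Sfrp2: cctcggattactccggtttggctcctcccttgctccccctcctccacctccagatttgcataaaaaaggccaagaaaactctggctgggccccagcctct
Sfrp5: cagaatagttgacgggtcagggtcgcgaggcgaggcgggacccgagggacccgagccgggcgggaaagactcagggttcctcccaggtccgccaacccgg
Dkk2: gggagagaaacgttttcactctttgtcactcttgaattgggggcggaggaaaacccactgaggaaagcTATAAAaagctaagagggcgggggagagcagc
TATAAA, searched on the gene's strand, was found in the window of Dkk2, 32 bases before its start, and of Dkk1, 54 bases before its RefSeq start, compared with 3.8% of the 32851 promoters in the table. The window of Sfrp5 was the richest in G and C of those printed, at 70%, and that of Dkk2 the poorest, at 51.0%. In the 250 bases before the start, searched on both strands, a RUNX motif (TGTGGT or ACCACA) was found for Dkk1 and Sfrp5, and in 14% of all promoters. A TCF/LEF motif (CTTTGAT or ATCAAAG), an AP-1 motif (TGACTCA or TGAGTCA) and a SOX motif (ACAATG or CATTGT) were found in none of the 6 windows, against 3.21%, 4.46% and 10.7% of all promoters. These matches describe letters only.

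The 9 antagonists fell into different compartments, as the plot of each gene's UMIs by compartment shows. Sfrp1, Sfrp5, Frzb and Wif1 were mainly cartilage transcripts, with 72.9%, 91.0%, 89.6% and 81.8% of their WT UMIs in cartilage classes. Sfrp2, Sfrp4 and Dkk2 were mainly stromal, with 80.2%, 84.1% and 71.6% of their WT UMIs in stromal classes, and 76.6% of those of Dkk1 were in Cxcl12-high and osteoblast-like cells. Dkk3 was divided, with 54.4% in stroma and 32.1% in cartilage. Of the UMIs of all genes in WT, 37.9% were in cartilage, 20.3% in stroma and 6.14% in Cxcl12-high and osteoblast-like cells. The share in cartilage was larger for Dkk3 in Bmx-CreER Wls (54.2%), where cartilage cells were also more numerous and held 54.4% of the UMIs of all genes.

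**Figure D1:**
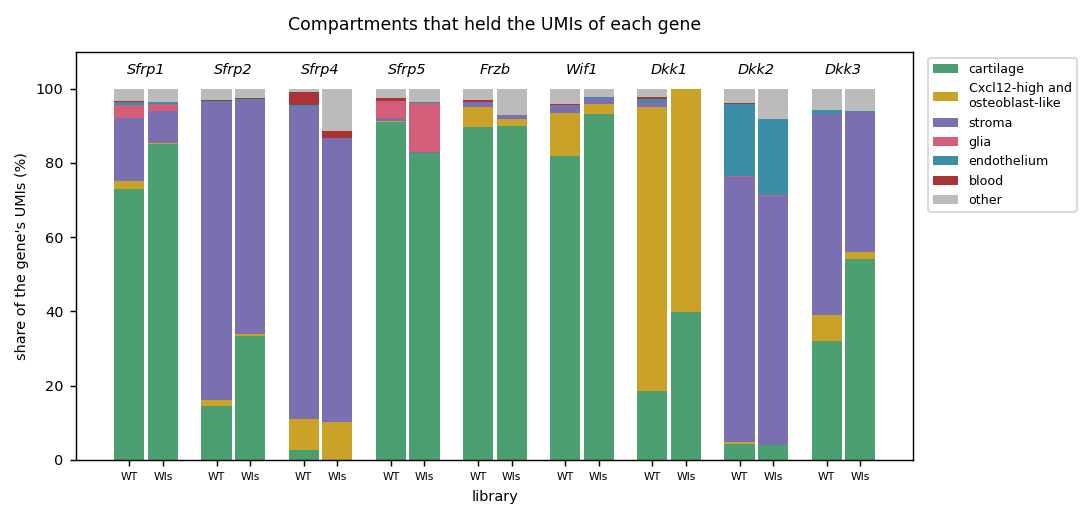
Percent of each gene's UMIs that fell in each compartment, for the 9 antagonist genes in the WT and the Bmx-CreER Wls library (1 library each, no error bars). Cartilage holds most UMIs of Sfrp1, Sfrp5, Frzb and Wif1 in both libraries, stroma most of those of Sfrp2, Sfrp4 and Dkk2, and Cxcl12-high and osteoblast-like cells most of those of Dkk1.

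Blood cells gave the background. Between 0 and 8 UMIs of each gene were counted in all 681 blood cells of WT (median 7098 UMIs per cell) and 446 of Bmx-CreER Wls, and the share of blood cells with a UMI ran from 0 to 1.17%. No member exceeded 3 UMIs in a blood class of either library other than Sfrp4 in WT erythroid-like cells, at 8 UMIs or 5.08 CPM (2.19 to 10), and Wif1 in osteoclast-like cells of Bmx-CreER Wls, at 4 UMIs. Fabp4-high ECs, the most numerous ECs, were nearly as low, with 9.70 CPM of Sfrp1 as the highest WT value. In mural-like cells Dkk3 was the highest, at 65.0 CPM (40.2 to 99.3) in WT and 45.4 CPM (26.4 to 72.6) in Bmx-CreER Wls. The heat map of levels shows these rows near the bottom of the scale for most genes. Colours in it are relative to each gene's own highest level and do not compare genes.

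**Figure D2:**
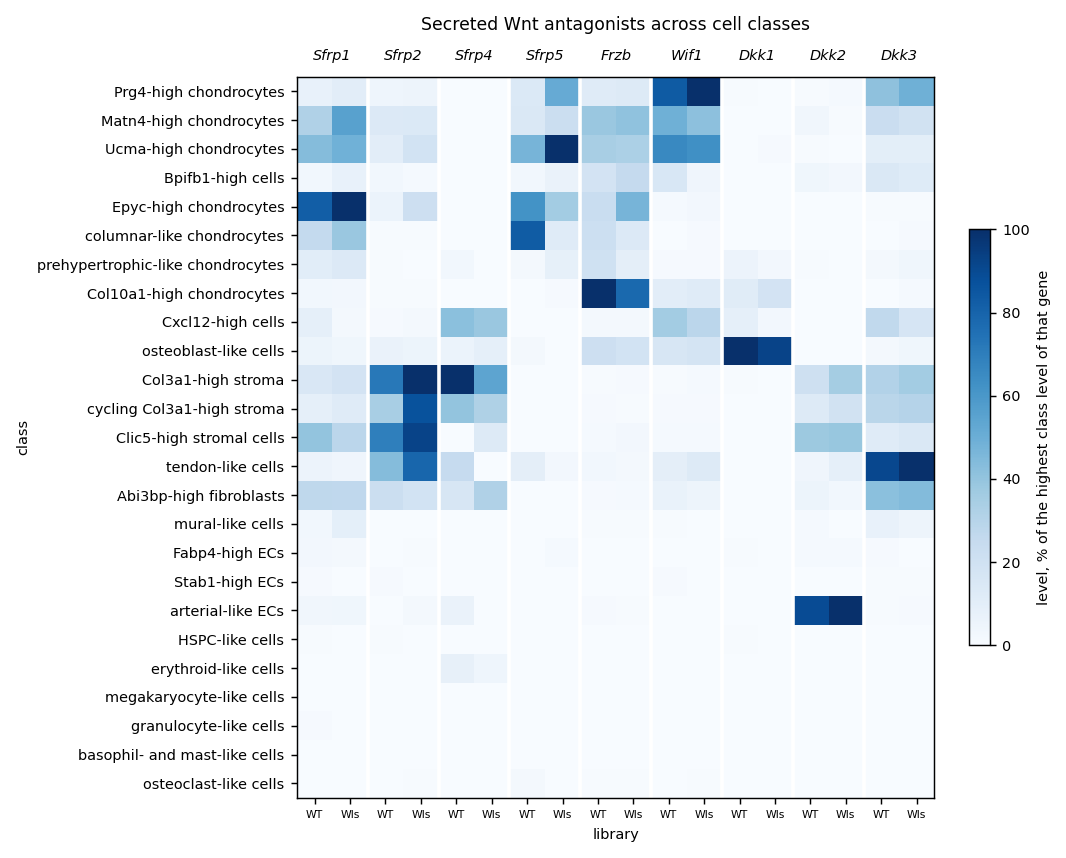
Level of each antagonist gene as percent of its own highest class level over both libraries (colour), in the 25 classes with at least 20 cells in each library (rows), for WT and Bmx-CreER Wls (columns). Each gene is high in a few classes, and blood classes are near the lowest colour except for a faint value of Sfrp4 in erythroid-like cells (5.08 CPM in WT).

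The highest class of a gene was the same in both libraries for 8 of 9 genes, the exception being Sfrp5. The number was 7 when levels were means over cells, and 6 with 30 principal components or with each library clustered on its own. Over the 25 classes, levels of a gene on the log2 scale had a Pearson correlation between libraries of 0.985 for Dkk3 at one end and 0.79 for Sfrp5 at the other. These classes were defined on both libraries together, so this describes the data and is not a test. The plot of the leading classes shows the levels and intervals that follow.

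**Figure D3:**
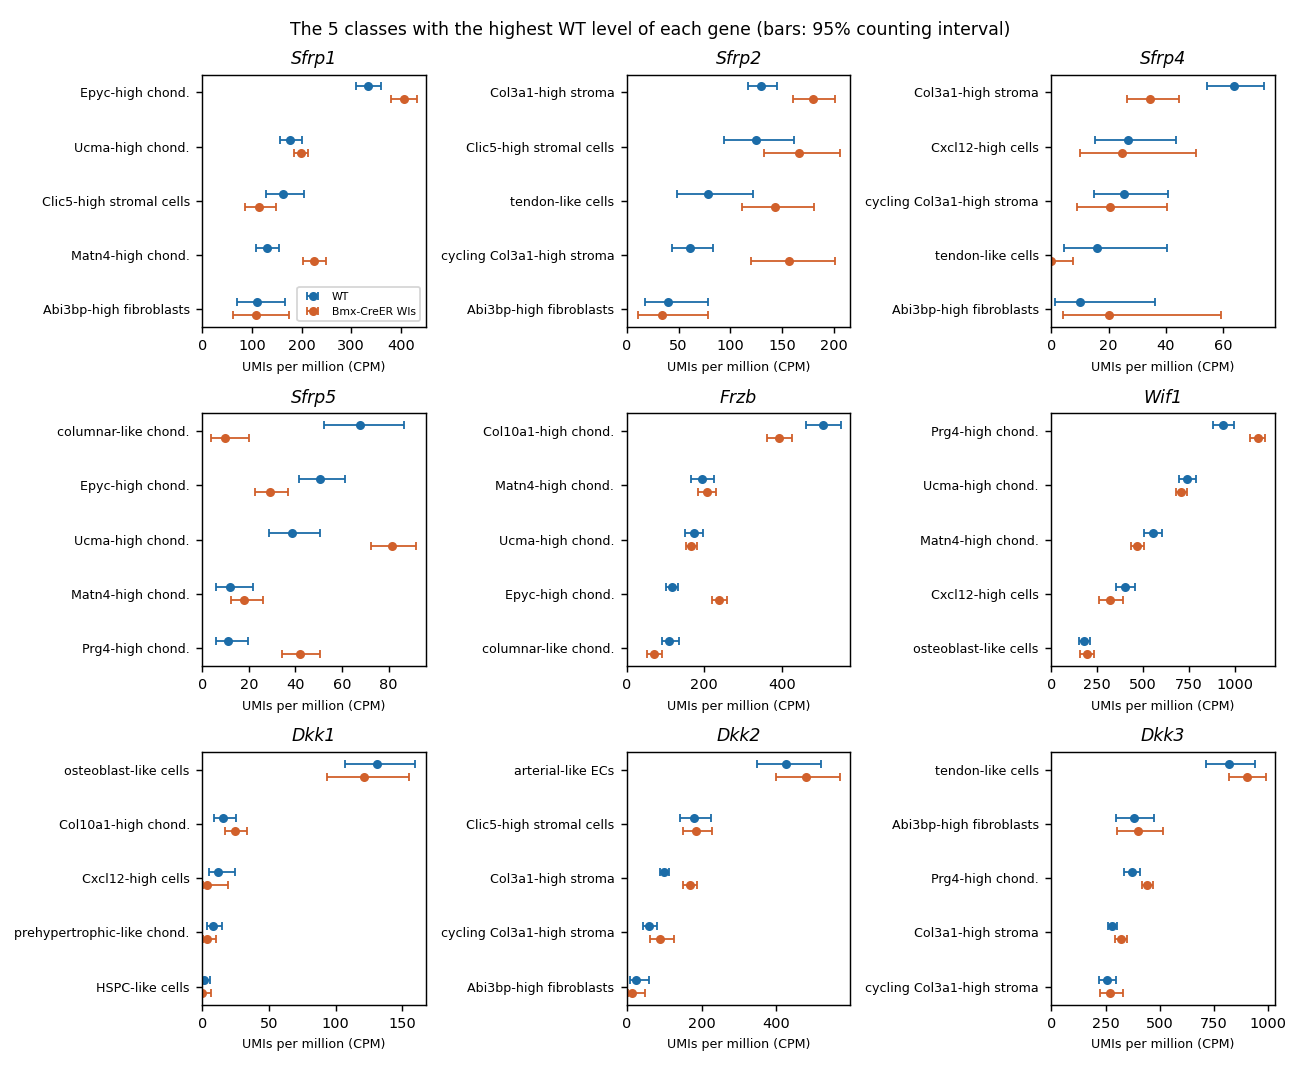
Level in CPM with 95% Poisson interval of each of the 9 genes in the 5 classes with its highest WT level, for WT (blue) and Bmx-CreER Wls (orange). The intervals of both libraries overlap for Dkk1 in osteoblast-like cells and Dkk2 in arterial-like ECs, and lie apart, for example, for Sfrp5 in columnar-like chondrocytes (67.9 against 9.63 CPM), Sfrp4 in Col3a1-high stroma (63.8 against 34.5 CPM), Frzb in Epyc-high chondrocytes (116 against 238 CPM) and Sfrp1 in Matn4-high chondrocytes (129 against 226 CPM).

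Sfrp1 was highest in Epyc-high chondrocytes, a class with reserve-zone markers (4 of 5 higher than in other cells) and the small proteoglycan gene Epyc. Its level there was 334 CPM (309 to 360) in WT and 406 CPM (381 to 432) in Bmx-CreER Wls, above every other ordered class beyond counting error in both. In WT, Ucma-high chondrocytes followed with 178 CPM (156 to 202), and Clic5-high stromal cells with 162 CPM (127 to 204) had an overlapping interval. Columnar-like chondrocytes had 103 CPM (83.8 to 126) and Col10a1-high chondrocytes, the latest ordered zone of maturation, 12.2 CPM. A Sfrp1 UMI was found in 55.4% of Epyc-high, 19.2% of prehypertrophic-like, 7.97% of Col10a1-high and 6.56% of Prg4-high chondrocytes, although depth per cell differs between classes. Schwann-like cells, the glia of peripheral nerve, carried still more Sfrp1, at 883 CPM (667 to 1146) in WT and 840 CPM (625 to 1104) in Bmx-CreER Wls, but were only 24 and 16 cells.

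Sfrp5, of the same subfamily as Sfrp1, was sparse and uneven. In WT it was highest in columnar-like chondrocytes, the flattened proliferating cells of the growth plate, with 63 UMIs in 35 of 150 cells, or 67.9 CPM (52.1 to 86.8). Epyc-high chondrocytes with 50.7 CPM (41.4 to 61.4) and Ucma-high chondrocytes with 38.4 CPM (28.6 to 50.4) followed, each overlapping the next higher class. In Bmx-CreER Wls the order was turned round. Ucma-high chondrocytes had 81.6 CPM (72.5 to 91.6), Prg4-high chondrocytes 41.8 CPM (34.2 to 50.6) against 11.2 CPM (5.78 to 19.5) in WT, and columnar-like chondrocytes 7 UMIs in 5 of 108 cells, or 9.63 CPM (3.87 to 19.8). Within Ucma-high chondrocytes the gene was concentrated in a subcluster led by Col8a1 and Bmp7, at 182 CPM (126 to 256) in WT and 544 CPM (456 to 644) in Bmx-CreER Wls. Within Prg4-high chondrocytes it was concentrated in a subcluster led by Col8a1 and Pthlh, at 70.7 and 485 CPM. Schwann-like cells had 189 CPM (97.7 to 330) and 1350 CPM (1074 to 1676), the latter from 82 UMIs, of which 34 came from 1 cell.

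Frzb was highest in Col10a1-high chondrocytes, which carry all 5 prehypertrophic markers and the hypertrophic collagen Col10a1. It reached 505 CPM (461 to 551) in 81.9% of cells in WT and 393 CPM (362 to 427) in 70.4% in Bmx-CreER Wls. The next level in WT, 194 CPM (166 to 225) in Matn4-high chondrocytes, was below it beyond counting error and overlapped that of Ucma-high chondrocytes at 172 CPM (151 to 196). Mmp13-high hypertrophic-like cells, 26 and 17 cells, had 423 CPM (314 to 558) and 353 CPM (241 to 498). The level was not graded along maturation, since prehypertrophic-like chondrocytes had 102 CPM (84.1 to 124) in WT, lower than the less mature Ucma-high class. Outside the cartilage classes, osteoblast-like cells had 107 CPM (84.8 to 132) and 92.9 CPM (68.7 to 123). Bpifb1-high cells had 91.1 CPM (63.8 to 126) and 128 CPM (108 to 150). The remaining ordered classes outside cartilage were at most 15.8 CPM in WT.

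Wif1 had the most UMIs of the 9 genes, 3251 in WT and 6832 in Bmx-CreER Wls. It was highest in Prg4-high chondrocytes, the superficial cells that make the joint lubricant lubricin, with 935 CPM (878 to 995) and 1122 CPM (1081 to 1164). Ucma-high chondrocytes (740 and 707 CPM), Matn4-high chondrocytes (551 and 468 CPM), Cxcl12-high cells (401 and 319 CPM) and osteoblast-like cells (177 and 193 CPM) came next. The first 4 of these classes were each separated from the next beyond counting error in both libraries. Wif1 was low in columnar-like, Epyc-high and prehypertrophic-like chondrocytes. No UMI was counted in 150 columnar-like chondrocytes of WT, which allows up to 3.23 CPM, and 9 were counted in 108 of Bmx-CreER Wls. Epyc-high chondrocytes had 13.6 CPM (9.06 to 19.7) and 30.3 CPM (23.9 to 38.0). Prehypertrophic-like chondrocytes had 11 UMIs in WT and 8 in Bmx-CreER Wls, or 10.4 and 9.04 CPM. Wif1 returned in Col10a1-high chondrocytes at 115 CPM (95 to 139) and 133 CPM (115 to 153). A subcluster of Prg4-high chondrocytes led by Pcsk5 and Grem1, the latter encoding an antagonist of bone morphogenetic proteins, reached 1682 and 1433 CPM. The Matn4-high class is also led by the immediate early genes Egr1, Fos and Nr4a1, which can rise during dissociation, and their part in its levels was not tested.

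Sfrp2 was a stromal transcript. Col3a1-high stroma, fibroblast-like cells with all 8 of their markers, had 130 CPM (117 to 145) in WT and 180 CPM (161 to 202) in Bmx-CreER Wls, and Clic5-high stromal cells had 125 CPM (94.2 to 162) and 166 CPM (133 to 206), so that the order of these 2 classes was within counting error. Tendon-like cells had 78.9 CPM (48.2 to 122) and 143 CPM (111 to 181). Cycling Col3a1-high stroma had 61.4 CPM (44.1 to 83.3) and 157 CPM (120 to 201). In Bmx-CreER Wls the 4 stromal classes did not separate from each other at the top of the order. A subcluster of Col3a1-high stroma led by Rgs2 and Pax9 held the most, 192 and 343 CPM. In Epyc-high chondrocytes the gene had 11.2 CPM in WT and 38.4 CPM in Bmx-CreER Wls, and 23 and 95 UMIs.

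Sfrp4 was the sparsest secreted Frizzled-related gene, with 226 UMIs in WT and 97 in Bmx-CreER Wls. It was highest in Col3a1-high stroma, at 63.8 CPM (54.5 to 74.2) and 34.5 CPM (26.3 to 44.5). Cxcl12-high cells had 26.8 CPM (15.3 to 43.5) and 24.5 CPM (9.87 to 50.6), below Col3a1-high stroma in WT beyond counting error and not in Bmx-CreER Wls. No UMI was seen in 141 Clic5-high stromal cells of WT, which allows up to 6.68 CPM, and 4 UMIs, or 8.02 CPM (2.19 to 20.5), were counted in 141 of Bmx-CreER Wls. These cells shared Sfrp2 and Dkk2 with Col3a1-high stroma. Within Col3a1-high stroma it was unevenly spread. The subcluster led by Ngfr, Smoc2 and Lepr had 94.7 and 90.7 CPM, that led by Serpinf1 and Moxd1 had 102 and 57.8 CPM, and that led by Pi16 and Dpp4, known markers of progenitor fibroblasts, had 50 and 122 CPM. The Serpinf1 and Moxd1 subcluster held 261 cells in WT and 55 in Bmx-CreER Wls, so the makeup of the class differed between libraries.

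Dkk1 was found in few classes. Osteoblast-like cells, with the late osteoblast genes Bglap and Ifitm5, had 131 CPM (107 to 160) in 33.1% of 130 cells in WT and 121 CPM (93.4 to 155) in 29.5% of 78 cells in Bmx-CreER Wls. The next ordered class, Col10a1-high chondrocytes, had 15.3 CPM (8.56 to 25.2) and 24.1 CPM (16.8 to 33.5), and Cxcl12-high cells 11.7 CPM (4.71 to 24.1) and 3.51 CPM. No UMI was counted in Epyc-high chondrocytes, 634 and 808 cells, which allows up to 1.46 and 1.21 CPM. In WT, 8 of the 130 osteoblast-like cells held 50% or more of the class's 101 UMIs, and 17 came from 1 cell. A subcluster led by the immediate early genes Jun and Fosb had 201 and 184 CPM, against 92.9 and 87.5 CPM in the subcluster led by Ibsp and Ifitm5, and the part of dissociation in this difference was not tested.

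Dkk2 was highest in arterial-like ECs, the class in which the Cre driver acts. They had 101 UMIs in 37 of 72 cells in WT, or 428 CPM (348 to 519), and 127 UMIs in 40 of 64 cells in Bmx-CreER Wls, or 479 CPM (399 to 570). The other ECs had little: Fabp4-high ECs had 5.82 CPM (2.14 to 12.7) and 5.97 CPM (2.19 to 13), and no UMI was counted in 154 and 92 Stab1-high ECs, the sinusoidal type, which allows up to 5.43 and 7.56 CPM. Within the arterial-like class, the subcluster led by Gkn3 and F2rl1 had 707 CPM (569 to 868) and 588 CPM (481 to 711), and that led by the capillary genes Col15a1 and Plvap had 93.0 and 248 CPM. Stroma was the other site. Clic5-high stromal cells had 180 CPM (143 to 224) and 187 CPM (151 to 228), and Col3a1-high stroma 99.3 CPM (87.6 to 112) and 169 CPM (150 to 189). Because stromal cells were more numerous, they held 71.6% of Dkk2 UMIs in WT, and ECs 19.5%.

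Dkk3 was spread over stroma, tendon-like cells and superficial cartilage. Tendon-like cells had 820 CPM (713 to 940) in WT and 903 CPM (820 to 992) in Bmx-CreER Wls, with a UMI in 83.1% and 72.5% of cells, above every other ordered class beyond counting error. Abi3bp-high fibroblasts (379 and 398 CPM) and Prg4-high chondrocytes (371 and 443 CPM) did not separate from each other, and Col3a1-high stroma had 280 CPM (260 to 301) and 321 CPM (295 to 349). The tendon-like subcluster led by Tnmd, which encodes the tendon protein tenomodulin, reached 836 and 1230 CPM. In cartilage the level dropped from the superficial class through Matn4-high (206 and 173 CPM) and Ucma-high chondrocytes (89.5 and 90.1 CPM) to 6.33 and 4.45 CPM in Epyc-high chondrocytes.

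Shares of cells with a UMI followed these levels but depend on depth. In the highest WT class they were 55.4% for Sfrp1, 24.3% for Sfrp2, 11.7% for Sfrp4, 23.3% for Sfrp5, 67.2% for Wif1 and 51.4% for Dkk2. After each cell was thinned to 1000 UMIs they were 26.8%, 12.1%, 5.15%, 8.0%, 49.5% and 27.9%. Each was above the highest blood share of any of the 9 genes without thinning, 1.17%.

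Counts of the same WT cells were also regrouped by the cell types that the study listed, which is no independent check. Sfrp1 and Wif1, highest in chondrocyte classes above, and Dkk3, highest in tendon-like cells, led in other types here. Among the listed types Dkk1 was highest in OLCs-2, an osteolineage type, at 145 CPM (116 to 179), and Dkk2 in arterial ECs at 269 CPM (199 to 356). Sfrp4 was highest in eBMSC-1 cells, a stromal type, at 57.5 CPM (49.1 to 66.8), and Dkk3 there at 326 CPM (306 to 347). The cells listed as eBMSC-1 included 67 tendon-like cells, or 7.13% of them. Wif1 was highest in OLCs-1 at 372 CPM (329 to 420), ahead of the undivided chondrocytes at 309 CPM (291 to 329), whose zones are not distinguished by the list. Sfrp1 and Sfrp2 were highest in eBMSC-2 cells, at 158 and 136 CPM, and Frzb and Sfrp5 in chondrocytes, at 166 and 30 CPM.

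Between the libraries, whole-library levels differed for most of the 9 genes, and so did the cells that make them. The level in Bmx-CreER Wls over that in WT was 2.10 (1.82 to 2.43) for Sfrp5, 1.92 (1.84 to 2.0) for Wif1, 1.5 (1.41 to 1.59) for Sfrp1, 1.47 (1.38 to 1.57) for Frzb, 1.31 (1.18 to 1.46) for Sfrp2 and 1.29 (1.23 to 1.36) for Dkk3. It was 0.392 (0.306 to 0.499) for Sfrp4, 0.699 (0.539 to 0.905) for Dkk1 and 1.09 (0.970 to 1.22) for Dkk2, and the last interval includes equality. Prg4-high chondrocytes numbered 427 in WT and 869 in Bmx-CreER Wls, and Ucma-high chondrocytes 607 and 1388.

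To separate the makeup of the libraries from levels within classes, the WT level of each class was weighted by the Bmx-CreER Wls makeup. Makeup alone gave a ratio of 1.86 for Wif1, which left 1.03 within classes, and of 1.40 for Frzb, which left 1.05. For Dkk1 it gave 0.720 and left 0.972, and for Dkk3 1.21 and left 1.07. For Sfrp2 it went the other way, 0.849, and left 1.55, and for Dkk2 it gave 0.831 and left 1.31. Sfrp4 had 0.601 and 0.652, Sfrp5 1.32 and 1.6, and Sfrp1 1.22 and 1.23. The whole-library ratios for Wif1, Frzb, Dkk1 and Dkk3 were therefore mostly the ratio of class makeup. For the other genes more was left within classes than for these, although for Sfrp4 and Sfrp1 makeup gave about as much. What is left is a net over classes, in which ratios of opposite direction can cancel. Frzb, for example, was 2.05 in Epyc-high and 0.474 in prehypertrophic-like chondrocytes.

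**Figure D4:**
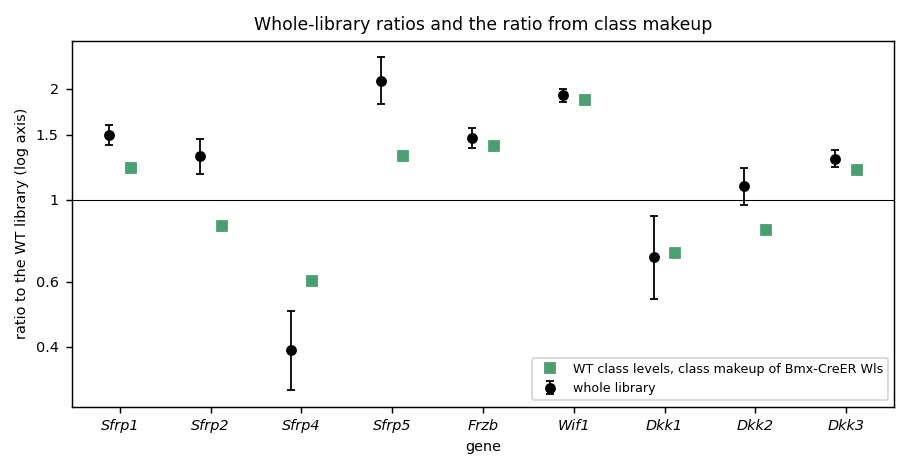
Ratio of the whole-library level in Bmx-CreER Wls over WT for each of the 9 genes (black points, bars are exact 95% intervals), with the ratio given by WT class levels at the Bmx-CreER Wls makeup (green squares), on a log axis with 1 library each. Makeup gives nearly all of the ratio of Wif1 (1.86 of 1.92), and lies below equality for Sfrp2 and Dkk2, whose whole-library ratios were 1.31 and 1.09.

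Within its highest WT class, a gene was counted as past the fold where the ratio was at least 1.5 either way. Sfrp4 in Col3a1-high stroma, at 0.541 (0.395 to 0.733), and Sfrp5 in columnar-like chondrocytes, at 0.142 (0.0548 to 0.310), were past it, 2 of 9 genes. In those classes 12.2% and 11.8% of all genes tested were past the same fold. In the classes where the other genes were highest and did not pass it, the share of all genes was 10.3% for Epyc-high chondrocytes, 17.3% for Col10a1-high chondrocytes, 12.6% for Prg4-high chondrocytes, 10.9% for osteoblast-like cells, 12.9% for arterial-like ECs and 18% for tendon-like cells. Over all classes, 21 of the 55 gene and class pairs with at least 50 UMIs were past it (38.2%), 14 higher and 7 lower in Bmx-CreER Wls, compared with 12.1% of the 114716 pairs of all genes, 6.32% higher and 5.76% lower. These pairs share cells and libraries, and no test was made.

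**Figure D5:**
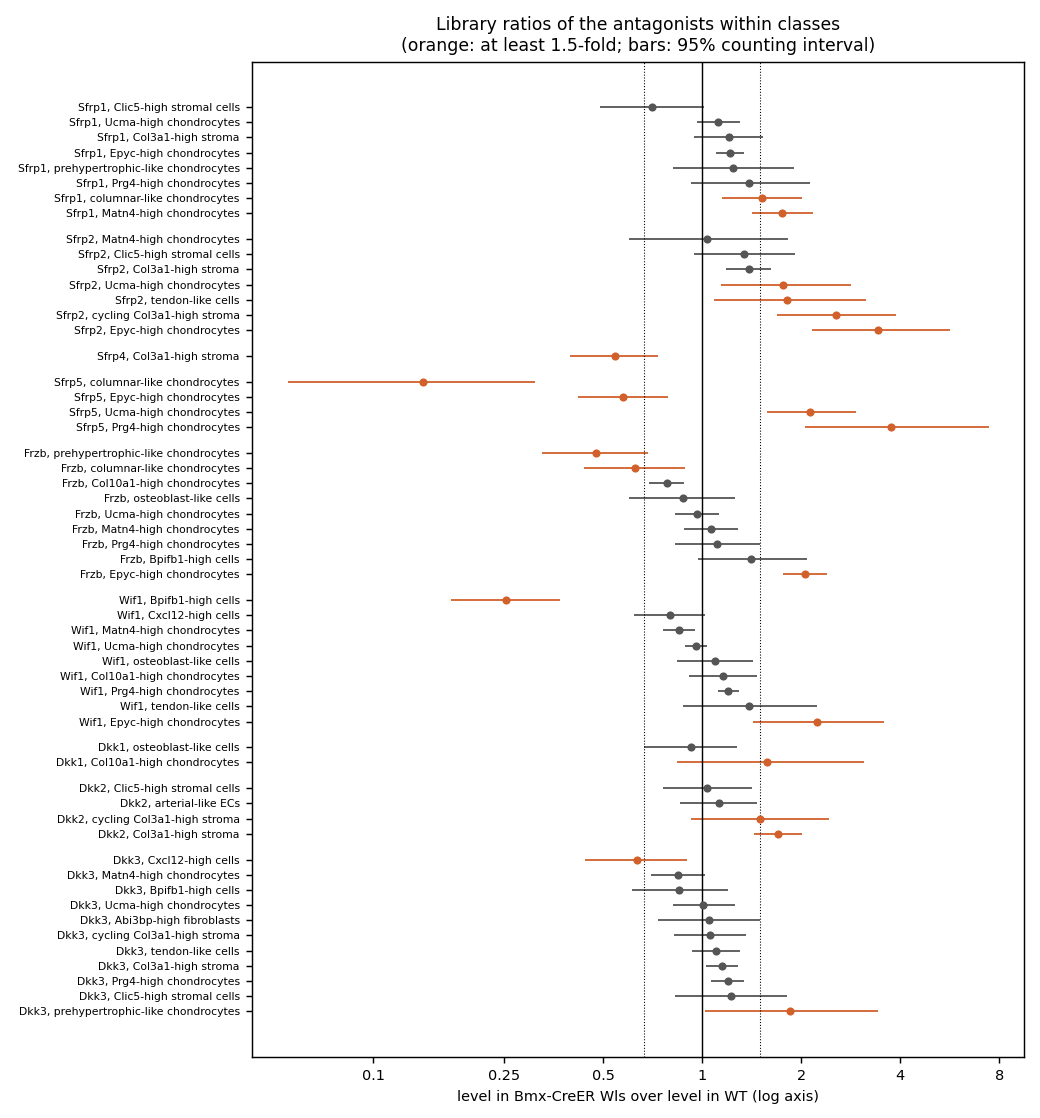
Ratio of the level in Bmx-CreER Wls over WT (log axis) with exact 95% interval for the 9 genes in classes where at least 50 UMIs were counted, with dotted lines at 1.5-fold either way and pairs past them in orange. Sfrp5 lies on both sides of equality, at 0.142 in columnar-like and 3.73 in Prg4-high chondrocytes, and most points of Wif1 and Dkk3 lie between the lines.

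Of the 21 pairs past the fold, 14 were in cartilage classes, which held 30 of the 55 pairs tested. In Epyc-high chondrocytes, where 10.3% of all genes were past it, Frzb was 2.05 (1.76 to 2.39), Sfrp2 3.43 (2.16 to 5.67), Wif1 2.23 (1.42 to 3.57) and Sfrp5 0.575 (0.420 to 0.784) relative to WT. Sfrp5 was 3.73 (2.05 to 7.46) in Prg4-high and 2.13 (1.58 to 2.93) in Ucma-high chondrocytes, where 12.6% and 9.31% of all genes were past the fold. Frzb was 0.474 (0.325 to 0.681) in prehypertrophic-like chondrocytes (10% of all genes), and Dkk3 was 0.635 (0.440 to 0.899) in Cxcl12-high cells (14% of all genes). Wif1 was 0.252 (0.172 to 0.368) in Bpifb1-high cells (16.5% of all genes). In stroma, Dkk2 was 1.70 (1.43 to 2.02) in Col3a1-high stroma, and Sfrp2 was 2.55 (1.69 to 3.89) in its cycling counterpart (14.7% of all genes). Of the 8 members with at least 50 UMIs in 2 or more classes, 4 were past the fold in opposite directions in different classes, with both intervals excluding equality, as were 6.97% of the 9298 genes of that kind. No test was made.

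Subclusters of a class can differ in number between libraries. At WT levels weighted over the same subclusters, the ratio of Sfrp4 in Col3a1-high stroma was 0.839, no longer past the fold. That of Dkk3 in Cxcl12-high cells was 0.712, also no longer past it. That of Frzb in Epyc-high chondrocytes was 1.51 and that of Wif1 in Bpifb1-high cells 0.557. The ratio of Sfrp5 was 0.151 in columnar-like chondrocytes and 5.82 in Prg4-high and 3.21 in Ucma-high chondrocytes, and that of Dkk2 in Col3a1-high stroma was 1.67. The result for Sfrp5 depended on the clustering: with the 9 genes and the pathway genes kept among the variable genes, columnar-like chondrocytes of WT had 19.8 CPM instead of 67.9 CPM, no ratio could be given there, and the gene was highest in Matn4-high chondrocytes in both libraries. In the subcluster led by Ngfr and Lepr, Dkk2 had 171 CPM (134 to 215) in WT and 406 CPM (342 to 480) in Bmx-CreER Wls, while Sfrp1 had 229 and 266 CPM and Sfrp2 229 and 228 CPM.

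Many cells carried transcripts of several antagonists. At least 1 of the 9 genes was counted in 86.7% of Prg4-high chondrocytes of WT and at least 2 in 42.4%, and in Bmx-CreER Wls these shares were 92.4% and 56.8%. Osteoblast-like cells had at least 3 in 17.7% and 20.5%. Arterial-like ECs carried at least 1 in 58.3% and 62.5% but at least 2 in 1.39% and 10.9%, because Dkk2 was nearly the only member there. HSPC-like cells, the blood stem and progenitor class, had at least 1 in 4.35% of 161 cells in WT and in 0 of 95 cells in Bmx-CreER Wls, which allows a share of up to 3.16%.

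The genes whose levels were most like those of each member were sought among 9536 genes over the 25 classes of WT, by Pearson correlation of log2(CPM + 10), which is a description over classes that share a library and differ in depth. Dkk1 was closest to Ifitm5 (0.983 in WT, 0.940 in Bmx-CreER Wls), Ibsp and Entpd3, of which the first pair are genes of mineralising osteoblasts. In WT, Dkk1 had 131 CPM in osteoblast-like cells and at most 15.3 CPM in the other ordered classes. Its correlations therefore rest largely on osteoblast-like cells. Frzb was closest to Ooep and to the cartilage collagens Col11a2 (0.937 and 0.918) and Col2a1. Among the genes closest to Dkk3 were Fbn2 (0.949 and 0.938) and Loxl1, and Sfrp2 was closest to Fez1, Pamr1 (0.919 and 0.912) and Matn2. Sfrp1 was closest to Dact1 (0.905 and 0.873), which encodes an intracellular Wnt modulator, Papss1 and Tmem231, Wif1 to Fgfr2, Tnc and Ism1, and Dkk2 to Tmem100, Syt11 and Tmod2. Sfrp4 was closest to Pcdh20, Abca9 (0.828 and 0.868) and Svep1. For Sfrp5 the closest gene, A2m, had 0.903 in WT and 0.591 in Bmx-CreER Wls. Among the members themselves, Sfrp2 and Dkk3 had 0.732 and 0.714, and Sfrp1 and Sfrp5 0.647 and 0.636.

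Other genes of the pathway were described from a list fixed with the members by their highest class in WT among the ordered classes. Of 19 Wnt ligand genes, 15 were detected and 7 had at least 50 UMIs, of which 4 were highest in stroma, 2 in Bpifb1-high cells and 1 in cartilage. Wnt5b, a ligand of maturing cartilage, was highest in Col10a1-high chondrocytes, at 206 and 161 CPM, the class where Frzb was highest. Wnt5a and Wnt16 were highest in Abi3bp-high fibroblasts, at 404 and 344 CPM and at 120 and 54.0 CPM, where Dkk3 ranked second in WT. Wnt4 was highest in Bpifb1-high cells, at 124 and 298 CPM. Of 10 Frizzled receptor genes all were detected and 9 had at least 50 UMIs, of which 5 had the same highest class in both libraries. In WT, 3 of the 9 were highest in stroma, 2 in Cxcl12-high or osteoblast-like cells, 2 in arterial-like ECs (Fzd4 and Fzd6), 1 in Prg4-high chondrocytes (Fzd8) and 1 in Bpifb1-high cells (Fzd9). Of the 5 target and feedback genes, 4 had at least 50 UMIs and 2 of them kept their class. Tcf7 was highest in osteoblast-like cells in both libraries (182 and 176 CPM), Nkd1 in Abi3bp-high fibroblasts in both, and in WT Axin2 was highest in Col10a1-high and Lef1 in Epyc-high chondrocytes, each in another class in Bmx-CreER Wls. Of the other antagonists, Notum, a secreted enzyme that removes the lipid from Wnt ligands, was at 101 CPM in Matn4-high chondrocytes, and Sostdc1 at 64.9 CPM (34.5 to 111) in Abi3bp-high fibroblasts. Sostdc1 was also among the 10 leading genes of Schwann-like cells, a class outside the orders, whose level of this gene is not given here. Kremen1, which encodes a receptor for Dickkopf proteins, was highest in Clic5-high stromal cells, at 218 and 156 CPM. Among the 9 genes listed as R-spondin ligands and their receptors, Znrf3 and Rnf43 included, 3 of the 6 with at least 50 UMIs were highest in stroma and 3 in cartilage. Rspo3 had 270 and 297 CPM in Abi3bp-high fibroblasts.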

How the data were processed

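Lineage-depleted femur cells of 1 WT and 1 Bmx-CreER Wls library (BD Rhapsody whole transcriptome kit) were analysed. The deposited files hold counts of UMIs per gene and cell, made by the authors on mm10 with bcl2fastq 2.19.1.403, STAR 2.7.1a, UMI-tools 1.0.1 and featureCounts 1.6.4, per the submitters' processing notes. Strandedness of counting is not given in the sources used here. Cells with over 200 and under 5000 genes and under 30% mitochondrial UMIs were kept. Scanpy 1.11.5 and igraph 0.11.9 clustered both libraries together (11 principal components, resolution 0.5) on variable genes without the 9 members and the Wnt pathway genes, except Kremen1 and Kremen2. Scrublet called 38 WT cells and 0 others, so doublets were kept. A class "cartilage-mixed" (192 cells) was left out of the orders. UMIs were summed per class and library. Levels have exact Poisson, shares Clopper-Pearson and ratios exact binomial 95% intervals (scipy 1.17.1), checked on simulated data, which cover counting error only. A count of 0 was taken to allow up to 3 UMIs or cells, a fixed bound that lies below the upper limit of the exact 95% intervals. No test was made, since each genotype has 1 library. Named genes were the 9 members, the 3 genes most like each (at least 200 UMIs in WT) and a pathway list, and 1 gene that this rule names is not reported here. Members and lists were chosen with earlier results of these data known. The WT cell types listed by the authors were used only to regroup counts and to describe some classes, and only for cells in the list as read here. The alternatives tried were 12 planned and 2 added after seeing the data (without subclusters led by immediate early genes, and at equal subcluster makeup).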

Additional observations from a re-analysis of the deposited data

Results flagged for a closer look

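For 4 of the 8 members with at least 50 UMIs in 2 or more classes, the ratio of Bmx-CreER Wls over WT was past 1.5-fold in opposite directions in different classes, with both intervals excluding equality. The same held for 6.97% of the 9298 genes counted that deeply in 2 or more classes. There is 1 library per genotype, and the difference between the classes was not tested. Sfrp5 was 0.142 in columnar-like chondrocytes and 3.73 in Prg4-high chondrocytes. Frzb was 0.474 in prehypertrophic-like chondrocytes and 2.05 in Epyc-high chondrocytes. Wif1 was 0.252 in Bpifb1-high cells and 2.23 in Epyc-high chondrocytes. Dkk3 was 0.635 in Cxcl12-high cells and 1.85 (1.02 to 3.42) in prehypertrophic-like chondrocytes, the latter from 20 UMIs in WT and 31 in Bmx-CreER Wls. At equal subcluster makeup the ratio of Dkk3 in Cxcl12-high cells was 0.712, no longer past the fold.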

How the results depend on the processing

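No paired analysis was possible because each genotype has 1 library, and no replicate could be left out. The highest class in WT was kept under all 9 alternative settings for Sfrp1, Sfrp4, Frzb, Dkk1, Dkk2 and Dkk3, under 8 for Sfrp5 and Wif1, and under 5 for Sfrp2, where Clic5-high stromal cells took its place in the others. In Bmx-CreER Wls it was kept under 6 for Sfrp4, 7 for Sfrp2, 8 for Sfrp5 and 9 for the rest. The count of genes past the fold, 2, was 1 with the members and pathway genes kept among the variable genes, at a fold of 2 and at equal subcluster makeup, and 3 with 30 principal components and with each library clustered on its own. The number of genes with the same highest class in both libraries, 8, was 7 as a mean over cells and 6 in the last 2 of these. In the highest class, the ratio of Sfrp4 was 0.839 at equal subcluster makeup, and that of Sfrp5 was 0.0475 where each library was clustered on its own. With members and pathway genes kept, no ratio of Sfrp5 could be given. That of Frzb, 0.779, was 0.674 as a mean over cells and 0.572 with separate clustering. That of Wif1, 1.2, was 1.33 at resolution 1.0, 0.960 with 30 principal components, 1.34 with members and pathway genes kept, 1.5 with separate clustering and 0.977 at equal subcluster makeup. That of Dkk3, 1.1, was 0.911 with 30 principal components. Apart from the makeup of subclusters, the causes were not tested. Few UMIs of Sfrp4, Sfrp5 and Dkk1 were counted outside their leading classes, which limits their order there.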
